A study of Homo sapiens with 6 samples.

Results

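The cytosolic ribosomal proteins, the proteins that build the large and the small subunit of the ribosome outside the mitochondria, were followed in methotrexate (MTX) resistance. Members were found by gene symbol. A probe set, a group of array oligonucleotides that reads the transcripts of a gene, was a member when it was annotated to 1 gene only and its symbol was RPL or RPS followed by a number, with or without a closing A, X or L, or was RPLP0, RPLP1, RPLP2 or RPSA. The S6 kinases (RPS6K), pseudogenes and RPS23 were left out. This rule found 115 of 54675 probe sets, for 55 of the 19775 genes that are named alone on the array. The large subunit had 65 probe sets for 35 genes and the small subunit 50 probe sets for 20 genes. Another 25 protein-coding genes fit the symbol rule and had no member probe set. Of these, 15 were named only in probe sets that list several genes, RPL5 and RPL13A among them, and 10 in none here, RPLP0 and RPSA among them.

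The cells were K562, an established human erythroleukemia line from a chronic myeloid leukemia in blast crisis. The parental cells were sensitive to MTX, a folate antagonist, and grew in Ham's F12 medium with fetal bovine serum. The resistant cells had been taken through stepwise concentrations of MTX until they withstood 10e-5 M in the notation of the labels. The study's methods give it as the plain power with that exponent, not a multiple of it. The resistant cells were kept in a selective medium that lacked glycine, hypoxanthine and thymidine, with dialyzed serum. What goes with resistance and what goes with the medium therefore cannot be told apart. Each group had 3 arrays, and the labels do not say whether these came from separate cultures, so p-values measure only the spread between these samples. Before scaling, the median signals of parental arrays 1 to 3 were 14.3, 13.1 and 12.7, and those of the resistant arrays 12.3, 12.5 and 10.2. Levels below are signals divided by the median of their array and are given in array medians.

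Parental array 1 stood apart from the other parental arrays, with Spearman correlations across probe sets of 0.899 and 0.889, against 0.969 between parental 2 and 3. Resistant array 3 correlated at 0.941 and 0.946 with the other resistant arrays, which correlated at 0.968. Of the 12 erythroid markers checked, 9 were tested, with a summed level of 1790 to 1912 in the parental and 1249 to 1488 in the resistant arrays. The embryonic globin genes HBZ and HBE1 were bright in parental cells, and HBE1 was the only erythroid marker called. It was at 670.3, 561.7 and 569.5 in the parental and 73.8, 73.5 and 37.6 in the resistant arrays. Without HBE1 the sum over the other 8 was 1120 to 1351 in the parental and 1175 to 1415 in the resistant arrays. These groups overlapped, and HBZ, at 551 to 714, weighed most in the sum. Of the 9, 4 had positive log2 differences, and HBE1 was wholly lower in resistant arrays. Over all tested genes 14.2% were wholly lower and 2.77% were called. AHSP, a dim marker, was at 1.965, 11.7 and 9.84 in the parental and 0.0488, 1.54 and 0.2255 in the resistant arrays. It passed the level filter, a mean of at least 1 array median, through the parental arrays alone, so its difference is not given as a result. GATA1 had a log2 difference of -0.82 with overlap. Of 13 epithelial markers 9 were tested, and none was called. CDH1, CLDN7, EPCAM, CEACAM6, CLDN3 and CEACAM5 passed the level filter through the parental arrays alone. The direction of their differences is therefore not given as a result. KRT8, KRT18 and KRT19 had log2 differences of -0.88, -0.41 and -0.85, and their groups overlapped. The sum over the 9 was 643 in parental 1, 338 and 271 in parental 2 and 3, and 223 to 309 in the resistant arrays. Of the 5 lymphoid markers 2 were tested. CD3D was at 50.3, 31.9 and 35.2 in the parental and 0.919, 2.14 and 0.0784 in the resistant arrays (limma adjusted p = 0.0514). The other, CD79A, was at 0.552, 1.29 and 1.33 and then 1.28, 0.16 and 1.99, with overlap. Of the 5 fibroblast markers 2 were tested, with sums of 2.74 to 6.87. Whether any of these moved the ribosomal proteins was not tested.

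Most ribosomal proteins are needed in equal numbers, and the genes of the family are transcribed at high rates in growing cells. Most of their mRNAs begin with a cytidine followed by an unbroken stretch of pyrimidines, the terminal oligopyrimidine (TOP) motif. Through it, LARP1 and the kinase mTOR adjust translation of these mRNAs together. In erythroid cells a shortage of ribosomal proteins is known from Diamond-Blackfan anemia, in which genes such as RPS19 are mutated.

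The TOP motif is the sequence feature that the family shared and that the symbol rule did not use. RefSeq start sites (GRCh38.p14) were listed for 47 of the 55 genes. Of these, 33 (70.2%) began with C and a run of at least 5 bases of C or T, against 988 of 15842 genes (6.24%) in the whole table. The median run over the family was 7 bases, and RPL39 had the longest, at 19. The following stretches run from 10 bases before the start to 20 bases from it, 5′ to 3′, with the pyrimidine run at the start in capitals. They are shown for genes whose values are described below, and the last pair, the paralogues RPS27L and RPL10L, has no such run.
RPL31, chr2:101002279-101002308, plus strand: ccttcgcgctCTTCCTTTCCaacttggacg
RPL22, chr1:6199576-6199605, minus strand: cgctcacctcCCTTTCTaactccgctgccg
RPL39, chrX:119791611-119791640, minus strand: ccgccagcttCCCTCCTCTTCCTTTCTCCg
RPS6, chr9:19380217-19380246, minus strand: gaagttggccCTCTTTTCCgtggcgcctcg
RPS14, chr5:150449720-150449749, minus strand: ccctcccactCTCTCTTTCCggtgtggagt
RPS16, chr19:39435930-39435959, minus strand: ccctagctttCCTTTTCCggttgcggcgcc
RPS27, chr1:153990752-153990781, plus strand: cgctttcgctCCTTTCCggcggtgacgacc
RPS27L, chr15:63157458-63157487, minus strand: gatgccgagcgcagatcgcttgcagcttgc
RPL10L, chr14:46651762-46651791, minus strand: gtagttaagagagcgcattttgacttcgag

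RPS27 thus starts with a run that its paralogue RPS27L lacks. A motif bound by GABP, an activator of ribosomal protein genes (CCGGAAGT, either strand, no overlap with the run required), lay between 250 bases before and 50 bases after the start in 10 of the 47 genes (21.3%), against 6.97% of all genes. The motif of YY1 (AAGATGGC, either strand) lay there in 4 (8.51%), against 4.66%. Among member genes of at least 200 array medians, the 30 with the pyrimidine run had a median log2 difference of 0.22, resistant minus parental, and the 12 without it 0.21. A match to letters is a description and does not show that a factor bound.

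The comparison of resistant with parental cells asks which transcripts accompany resistance to MTX. Over both subunits, the representative probe set of each gene, the one with the highest mean log2 level, was slightly higher in resistant cells, and no gene was called by it. The median log2 difference was 0.24 over 33 large subunit genes (range -0.48 to 0.58) and 0.15 over 20 small subunit genes (-0.0039 to 0.41), against 0.017 over 11810 tested genes. It was positive in 29 of 33 and 19 of 20 genes. On this scale, the 3 resistant arrays lay above the parental ones in 18 large and 7 small subunit genes, and below them in none. Over all genes this was so for 16.1% (higher) and 14.2% (lower), and a call, an adjusted p under 0.05 with a fold of at least 2, was made for 2.77%. In total RNA from a culture, a change in every cell and a change in some cells cannot be told apart.

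Among probe sets that name no ribosomal protein, the median difference was higher at high levels, and bright members were close to it. Of the member probe sets, 67, for 48 genes, had a mean of at least 200 array medians, and none lay between RPL22 at 148 and RPL36 at 327, a division chosen after the values were seen. These 67 had a median log2 difference of 0.23. The 372 probe sets at this level that name no ribosomal protein had a median of 0.21, and 286 of them were positive. Their resistant arrays lay wholly higher in 39.5% and wholly lower in 5.38%, and those of the members in 34 (50.7%) and 1 (1.49%). Signals of different probe sets depend on their probes, so their order is not an order of transcript amounts.

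**Figure D1:**
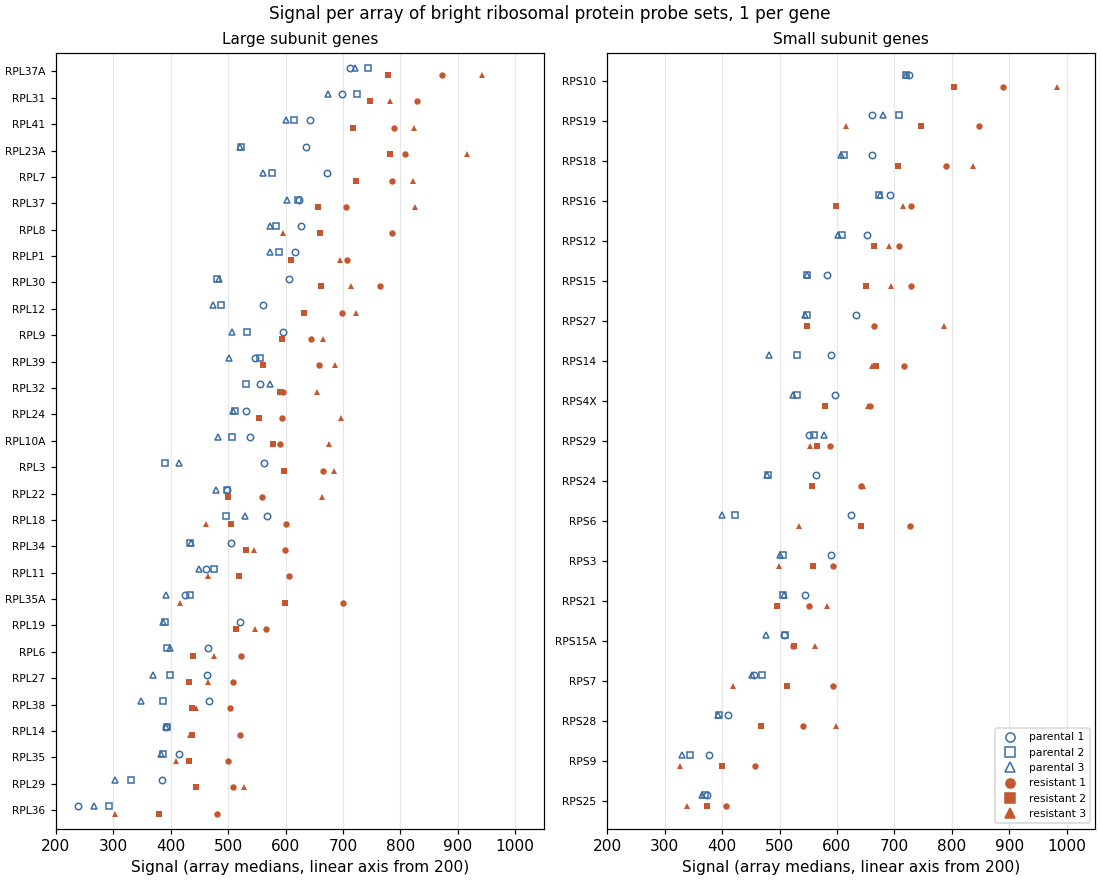
Signal of 48 ribosomal protein genes with at least 200 array medians, in array medians on a linear axis that begins at 200, with open blue symbols for the 3 parental arrays and filled orange symbols for the 3 resistant arrays; genes are ordered by mean signal within each subunit for display only. Resistant arrays lie wholly to the right of parental ones for 18 large and 7 small subunit genes, and parental 1 lies to the right of parental 2 and 3 for RPS6, RPL3, RPL30 and RPL19.

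The family as a whole took a slightly larger part of the signal in resistant cells. The member probe sets together held 5.85, 5.48 and 5.71% of the summed signal in the parental arrays and 6.08, 6.29 and 6.26% in resistant arrays. The means were 5.68% ± 0.187 and 6.21% ± 0.114 (SD, n = 3), and the groups did not overlap. The median level of the large subunit genes of at least 200 was 547, 496 and 482 array medians in the parental arrays and 607, 579 and 663 in resistant ones. For the small subunit it was 589.6, 530.2 and 507 in the parental and 658, 565 and 616 in the resistant arrays, where parental 1 lay above resistant 2. The other probe sets of at least 200 had median levels of 304, 275 and 257 in the parental and 348, 299 and 344 in the resistant arrays. The ratio of the large subunit to these others was 1.80, 1.80 and 1.87 in the parental and 1.74, 1.94 and 1.93 in the resistant arrays, and the groups overlapped. For the small subunit it was 1.94, 1.93 and 1.97 in the parental and 1.89, 1.89 and 1.79 in the resistant arrays, so that it was lower in all 3 resistant arrays.

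The direction for the family therefore depended on the scale. With each array centred on the other probe sets of at least 200, 15 large subunit genes of that level were higher and 14 lower (median 0.00076), and 7 small subunit genes were higher and 12 lower (median -0.082). After quantile normalization the large subunit had 14 higher and 15 lower, and the small subunit 7 and 12. In the values as deposited, the numbers were 20 and 9, and 7 and 12. Division by the array median, used for the values below, gave 28 and 1, and 18 and 1. The separation of the arrays depended on the scale too. On that scale resistant arrays lay wholly higher in 18 large and 7 small subunit genes of this level. With the centring the numbers were 6 and 1, after quantile normalization 6 and 3, and as deposited 1 and 0. Wholly lower were then 1 and 2, 2 and 2, and 0 and 1. Statements below on overlap of arrays hold for division by the array median. The median of all tested probe sets was 0.026 with division by the array median, 0.0039 after quantile normalization, -0.18 as deposited and -0.22 with the centring.

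**Figure D2:**
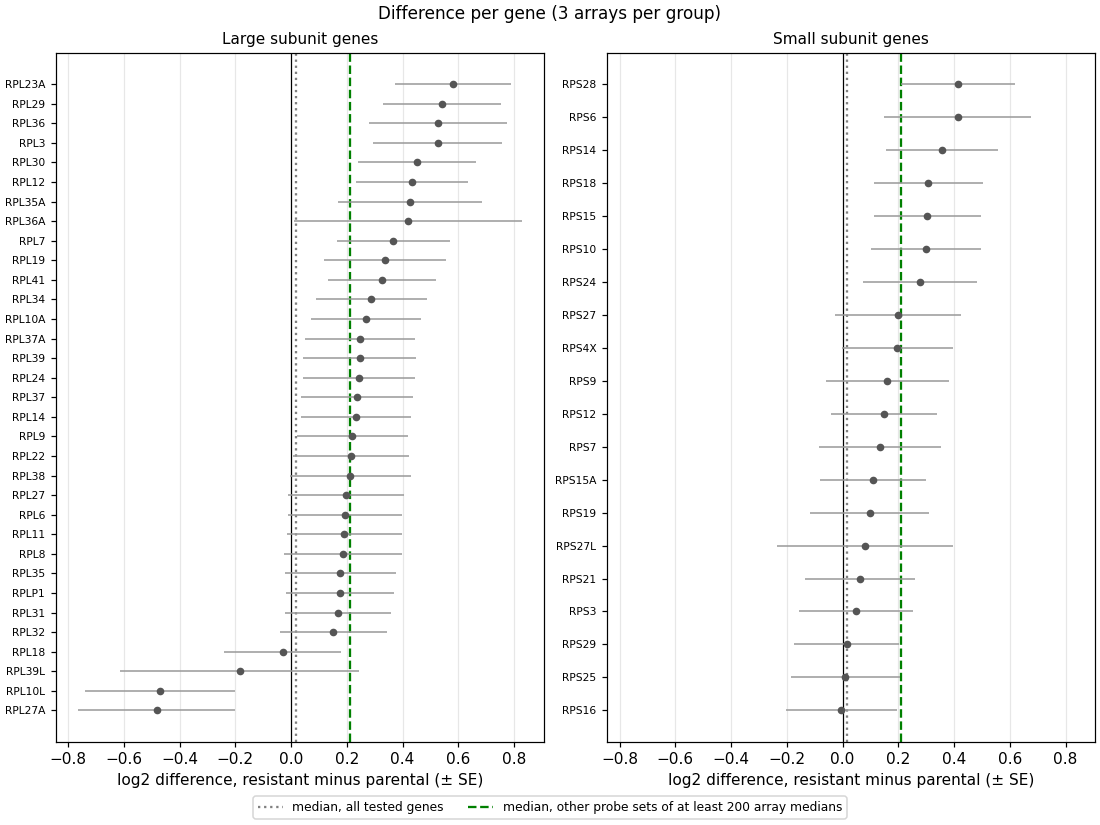
Log2 difference per gene, resistant minus parental, of signal over array median, for the representative probe set of 33 large and 20 small subunit genes; points are differences of means over 3 arrays, bars are standard errors from limma, the dotted line is the median of all tested genes at 0.017 and the dashed line that of the other probe sets of at least 200 array medians at 0.21. RPL23A has the largest difference at 0.58, most points lie between the lines or to their right, and RPL27A, RPL10L, RPL39L, RPL18 and RPS16 lie left of 0.

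Among large subunit genes, RPL23A, RPL29, RPL3, RPL36, RPL30 and RPL12 had the largest positive differences by bright representative probe sets. RPL23A lies at the mouth of the tunnel through which the new peptide leaves. It had levels of 636, 523 and 521 array medians in parental and 808, 782 and 917 in the resistant arrays. The arrays did not overlap, and the log2 difference was 0.58 (SE 0.208, limma adjusted p = 0.204). RPL29, also known as a heparin-binding protein, had 2 bright probe sets, with log2 differences of 0.58 and 0.54. Its representative was at 384, 332 and 303 in the parental and 508, 443 and 528 in the resistant arrays (adjusted p = 0.237). RPL3, which reaches toward the peptidyl transferase center, was at 563, 390.4 and 415 in the parental and 666, 598 and 684 in the resistant arrays. Parental 1 was the highest of its group, and the log2 difference was 0.53 (adjusted p = 0.288).

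RPL12, at the base of the stalk, had log2 differences of 0.43 and 0.54 in its 2 probe sets, and RPL10A, the protein of the L1 stalk where the empty tRNA leaves, 0.27 and 0.55. In each of these 4 probe sets the resistant arrays lay above the parental arrays. RPL35A, a gene mutated in some patients with Diamond-Blackfan anemia, was at 425, 433 and 392 in the parental and 701, 599 and 416 in the resistant arrays. Resistant 3 lay within the parental range, apart from resistant 1 and 2, and the log2 difference was 0.43 (adjusted p = 0.423). RPL37A, RPL31 and RPL41 had log2 differences of 0.25, 0.17 and 0.33. RPL37A was at 712, 744 and 722 in the parental and 872, 778 and 941 in the resistant arrays. RPL31 was at 699, 724 and 675 and then 829, 747 and 783, and RPL41, a very short peptide, at 642, 614 and 601 and then 789, 718 and 824. By these probe sets each of the 3 genes was higher in every resistant array than in any parental array. A dim probe set of RPL37A (214041_x_at) was wholly lower, at 9.06, 9.07 and 13.8 and then 7.75, 5.63 and 8.18. Its log2 difference was -0.56 (adjusted p = 0.34), and that of another dim one (213459_at) was 0.71 with overlap.

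The stalk and the 5S particle were covered in part. RPLP1, an acidic protein of the stalk that recruits elongation factors, was at 617, 589 and 573 in the parental and 707, 609.6 and 695 in the resistant arrays, where resistant 2 lay within the parental range. Its log2 difference was 0.18 (adjusted p = 0.67). Both probe sets of its partner RPLP2 failed the level filter, with means of 0.940 and 0.710 array medians. RPL11, which joins the 5S rRNA with RPL5 and can bind MDM2 when free, was at 462, 475 and 449 in the parental and 607, 519.7 and 464 in the resistant arrays. The groups overlapped, and the log2 difference was 0.19 (adjusted p = 0.661). RPL18 was the only large subunit gene of at least 200 with a negative difference, at -0.030.

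Among small subunit genes, RPS28, RPS6 and RPS14 had the largest positive differences by representative probe set. RPS28, mutated in rare Diamond-Blackfan anemia, was at 411, 395 and 394 in the parental and 542, 467 and 598 in the resistant arrays, a log2 difference of 0.41 (SE 0.204, adjusted p = 0.335) without overlap. RPS14, whose loss accounts for the anemia of the 5q- syndrome, was at 589.6, 531 and 481 in the parental and 716, 668 and 661 in the resistant arrays. Its groups did not overlap, and the log2 difference was 0.36 (adjusted p = 0.391). RPS10 was at 726, 719.8 and 719.9 in the parental and 888, 803 and 983 in the resistant arrays, and RPS18 at 661, 613 and 607 and then 790.1, 706 and 837. Both were higher in each resistant array, with log2 differences of 0.30 and 0.31.

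RPS19, the gene most often mutated in Diamond-Blackfan anemia, was at 660.2, 708 and 680.4 in the parental and 847, 746 and 616 in the resistant arrays. The resistant arrays spanned the parental ones, and the log2 difference was 0.097 (adjusted p = 0.846). RPS24, another gene of that anemia, was at 564, 480 and 477 in the parental and 641, 556 and 646 in the resistant arrays, with a log2 difference of 0.28 (adjusted p = 0.507). RPS9, near the entry of the mRNA, was at 378, 343 and 329.5 in the parental and 457, 400.2 and 327 in the resistant arrays (0.16). RPS25, which viral internal entry sites need, was at 373, 371 and 364 and then 407, 374 and 339 (0.0098). In both genes resistant 3 was the lowest of all 6 arrays.

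RPS6, the substrate of the S6 kinases downstream of mTOR, varied widely within both groups. Its representative probe set was at 625, 423 and 401 in the parental and 728, 642 and 534 in the resistant arrays. Parental 1 lay above resistant 3, and the log2 difference was 0.41 (SE 0.264, adjusted p = 0.449). The other bright probe sets of RPS6 had differences of 0.43 and 0.29 with the same order of arrays. RPS16, whose tail reaches the tRNA in the decoding site, had the only bright probe set of the family whose resistant arrays all lay below the parental ones on this scale. That probe set was at 456, 456 and 448 in the parental and 388, 346 and 310.1 in the resistant arrays, a log2 difference of -0.39 (adjusted p = 0.358). The other bright probe sets of RPS16 had differences of -0.096 and -0.0039.

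Probe sets of the family that passed the test were dim ones of 2 genes. Of 105 member probe sets tested, limma called 3 higher and none lower, where 2.33% of all 26692 tested probe sets were called (622, with 1.2% higher and 1.14% lower). The split over all probe sets was 319 higher and 303 lower with division by the array median, 205 and 317 as deposited and 254 and 595 with the centring. At an unadjusted p under 0.05 there were 17 members, against 18.7% of all. RPL37, a zinc-binding protein of the large subunit, had 2 of the calls. Its first dim probe set (224767_at) rose from 17.7, 18.4 and 17.6 in the parental to 54.5, 46.5 and 38.5 array medians in resistant arrays, a log2 difference of 1.36 (SE 0.218, adjusted p = 0.0334). Its second (224763_at) rose from 10.7, 17.4 and 17.0 to 42.0, 41.1 and 37.8, a log2 difference of 1.46 (SE 0.26, adjusted p = 0.0464). The bright probe set of RPL37 was at 624, 622 and 603 and then 705, 656 and 826, a difference of 0.24 (adjusted p = 0.572). Another dim probe set of RPL37 (224766_at), at 2.56, 2.50 and 2.57 and then 3.48, 5.20 and 3.06, was not called, with a difference of 0.58 (adjusted p = 0.293) and no overlap.

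RPS15A, a protein of the platform of the small subunit, had the other call. A dim probe set (235309_at) rose from 10.5, 6.42 and 5.86 in the parental to 29.9, 21.0 and 27.7 in the resistant arrays, a log2 difference of 1.82 (SE 0.3, adjusted p = 0.036). The bright probe set of RPS15A was at 508, 509 and 477 and then 524, 524.5 and 563, a difference of 0.11 (adjusted p = 0.797). Another dim probe set (229882_at) was at 1.47, 1.15 and 2.50 and then 2.29, 2.56 and 1.94, where the groups overlapped, with a difference of 0.48 (adjusted p = 0.482). The 3 called probe sets kept their direction in 19 alternatives, with log2 differences from 1.12 to 2.08, but were called in 7 to 10 of them, with adjusted p from 0.00449 to 0.198. Without parental 1, 3 large and 3 small subunit probe sets were called, and without parental 1 and resistant 3, 3 and 2. Calls over all tested probe sets rose in these settings too, from 622 to 1080 and 1014. Without any other single array no member was called, and calls over all tested probe sets fell to between 204 and 322. When limma's prior was made robust and followed the intensity, 9 large subunit probe sets, of RPL10A, RPL12, RPL22, RPL23A, RPL29, RPL31 and RPL37, and 1 of RPS15A had an adjusted p under 0.05 at any fold, where 5.17% of all tested probe sets did, and each of them was higher in resistant cells.

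**Figure D3:**
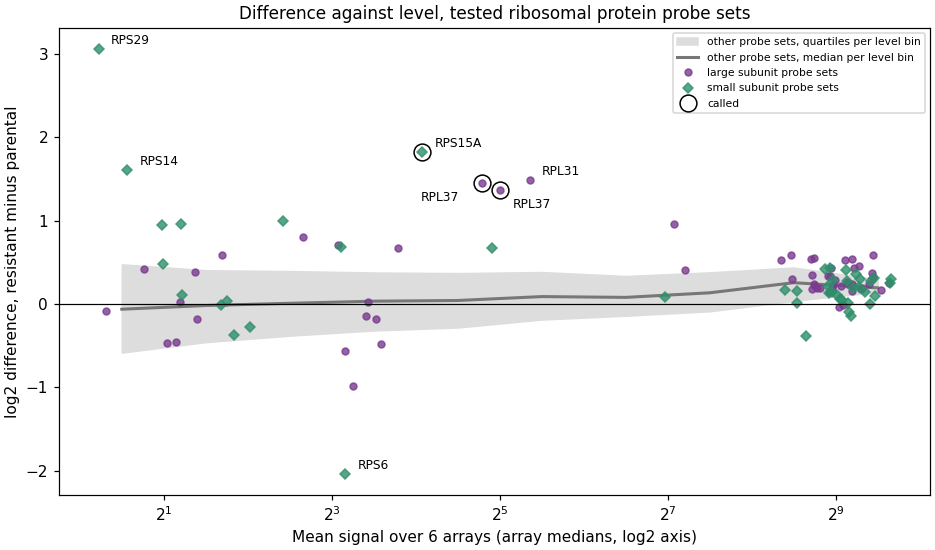
Log2 difference, resistant minus parental, of 105 tested ribosomal protein probe sets against mean signal over 6 arrays in array medians (log2 axis), with purple circles for the large and green diamonds for the small subunit, rings for called probe sets, and a grey line and band for the median and quartiles of other probe sets per level bin. The grey median rises from -0.062 at the lowest levels to 0.26 between 256 and 512 array medians, where the ribosomal proteins sit at 0.23, and the 3 called probe sets have means of 16.9 to 32.2.

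Bright members followed the other probe sets of their level, and dim members scattered widely. The median log2 difference of other probe sets was -0.062 at 1 to 2 array medians, 0.042 at 16 to 32, 0.26 at 256 to 512 and 0.19 at 512 to 1024. The members had 0.23 over 28 probe sets and 0.24 over 39 in the last pair of bins. Below 200 array medians there were 38 members. Of these, 2 passed the level filter through the resistant arrays alone, 1 each of RPS29 and RPS14. The other 36 had a median log2 difference of 0.24, near that of the bright members, and ranged from -2.03 to 1.82. Of the 115 member probe sets, 10 failed the level filter of 1 array median, the nearest being RPLP2 at 0.940, and the lowest to pass were RPS29 at 1.17 and RPL7 at 1.24.

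Several dim probe sets of the large subunit were higher in every resistant array without a call. Of 22 tested ones under 200 array medians, 8 (36.4%) were wholly higher, among them the 2 called ones of RPL37, and 1 (4.55%) wholly lower. Over all tested probe sets these shares were 14.9% and 12.3%. Negative log2 differences were found in 9 of the 22. RPL22, which binds viral and cellular RNA and acts in T cell development, had 5 tested probe sets. The probe set 221726_at was at 114, 88.9 and 73.7 in the parental and 179, 167 and 185 in the resistant arrays, a log2 difference of 0.96 (SE 0.237, adjusted p = 0.103). The probe set 214042_s_at had 0.41, and the bright probe sets 0.15, 0.22 and 0.23. RPL31 had a probe set (221593_s_at) at 37.4, 14.8 and 16.7 in the parental and 54.1, 54.6 and 68.4 in the resistant arrays. Parental 1 was the highest of its group, and the log2 difference was 1.49 (SE 0.387, adjusted p = 0.114). Without parental 1 that difference was 1.90 with an adjusted p of 0.0141. When any other single array was left out it was 1.23 to 1.54, with adjusted p of 0.231 to 0.295. RPL35A had a probe set (238026_at) at 5.20, 4.19 and 4.21 and then 6.42, 7.18 and 10.7, a difference of 0.81 (adjusted p = 0.18).

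Of 28 genes with several tested probe sets, RPS29, RPS6, RPS15A and RPL18 had the widest spread of log2 differences between probe sets, at 2.46 in RPS6, 1.72 in RPS15A and 1.35 in RPL18. RPS29, another zinc-binding protein, had a dim probe set (238824_at) at 0.678, 0.115 and 0.158 in the parental and 1.29, 1.90 and 2.86 in the resistant arrays. Every parental value was below the array median, and as the probe set passed the filter through the resistant arrays alone, its difference is not given as a result. Its bright probe set was at 551, 560.3 and 577 and then 587, 565 and 554, a difference of 0.015.

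RPS6 went the other way in its dim probe set (211690_at), which was at 8.76, 14.9 and 18.0 in the parental and 1.37, 3.34 and 7.43 in the resistant arrays. The groups did not overlap, and the log2 difference was -2.03 (SE 0.627, adjusted p = 0.162), while the 3 bright probe sets had positive differences. In RPS14 a dim probe set (214245_at) was at 2.07, 1.30 and 1.39 and then 2.97, 3.14 and 2.95, a difference of 0.96 (adjusted p = 0.113). The other (241241_at), which also passed through the resistant arrays alone, was at 0.741, 1.28 and 0.252 and then 3.63, 2.05 and 0.912, and the groups overlapped. In RPL18, a probe set at 12.9, 12.9 and 7.74 in the parental and 9.68, 1.38 and 12.6 in the resistant arrays had a difference of -0.98, and resistant 2 stood apart from the rest. In RPS28 and RPS24 the dim probe sets had differences of 0.99 and 0.68 (adjusted p = 0.195 and 0.247). Bright probe sets of the same gene differed less: over 15 genes with several of at least 200 array medians, the median spread was 0.10 and the largest, in RPS16, 0.38.

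**Figure D4:**
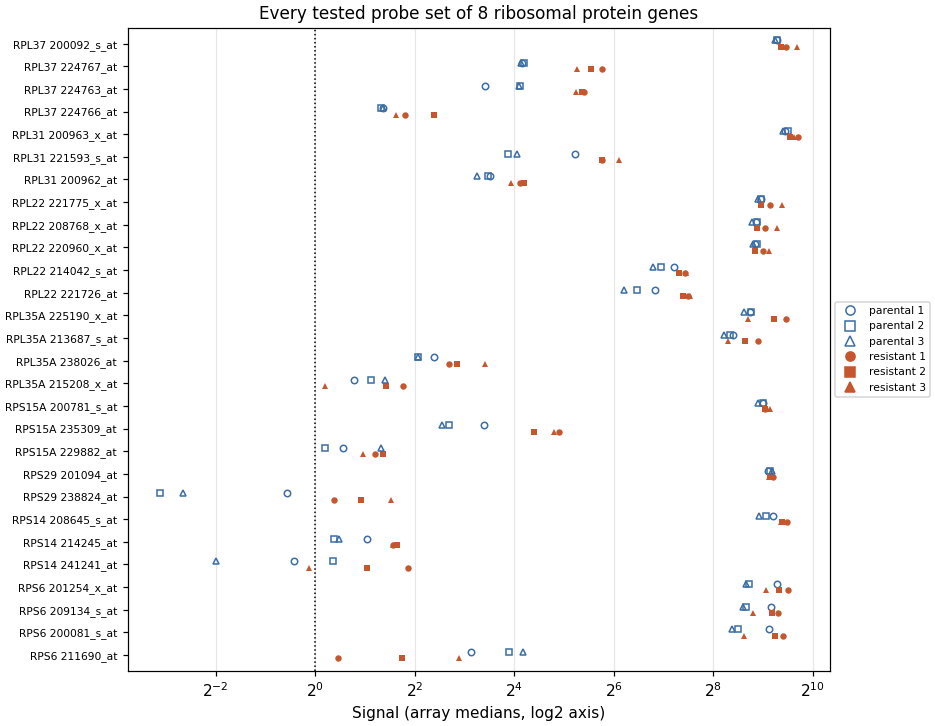
Signal per array of every tested probe set of 8 ribosomal protein genes, in array medians on a log2 axis, with open blue symbols for parental and filled orange symbols for resistant arrays; the dotted line marks 1 array median. Bright probe sets of RPL37, RPS15A and RPS29 hold the groups close together, the called dim ones of RPL37 (224767_at and 224763_at) and RPS15A (235309_at) hold them apart, the dim probe set 229882_at of RPS15A has them overlapping, and the dim probe set of RPS6 runs opposite to its bright ones.

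Of the paralogues inside the symbol rule none was called. RPL10L, which is known from the testis, was at 2.91, 2.12 and 2.11 in the parental and 1.46, 1.50 and 2.23 in the resistant arrays, a log2 difference of -0.47 (adjusted p = 0.402). RPL39L, also known from the testis and from tumors, was at 12.1, 12.3 and 10.8 and then 16.6, 12.2 and 5.33. Resistant 3 was the lowest, and the difference was -0.19 (adjusted p = 0.851) and 0.29 without that array. Its partner RPL39, in the wall of the exit tunnel, was at 547, 556 and 501 and then 659, 561.6 and 686, a difference of 0.25 (adjusted p = 0.556) without overlap. RPL3L, a form of heart and skeletal muscle, failed the filter with a mean of 0.560. RPS27L, which p53 induces, was at 175, 103 and 92.8 in the parental and 149, 132 and 101 in the resistant arrays (0.081). RPS27 was at 634, 548 and 545 and then 664, 549 and 786 (0.20), and both groups overlapped. RPL36A, at 1.75, 2.04 and 0.764 and then 2.24, 1.54 and 1.89, and RPL27A, at -0.48, were also read only by dim probe sets here.

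Other ribosomal proteins that the symbol rule leaves out included the paralogue RPL22L1. It rose from 30.4, 34.5 and 31.8 array medians in the parental to 82.4, 76.0 and 75.4 in the resistant arrays, a log2 difference of 1.27 (SE 0.194, adjusted p = 0.0278), while the bright probe sets of RPL22 were at 0.15 to 0.23 and its dimmer ones at 0.41 and 0.96. RPL22L1 was the only call among the 5 tested genes of a list of 7 such proteins, whose median was 0.56. Over all tested genes 2.77% were called. RPL26L1 had a difference of 0.85, RPL7L1 0.56, FAU, the precursor of a small subunit protein, 0.048, and RPL36AL 0.0029. Probe sets that name a gene fitting the symbol rule, with or without a member probe set, together with other genes numbered 64. Of these, 61 were tested and 2 called, where 2.33% of all tested probe sets were called. The 47 of at least 200 array medians had a median log2 difference of 0.26 (-0.18 to 0.58).

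Of 40 ribosome assembly genes 35 were tested, and none was called by its representative probe set, with a median log2 difference of 0.33. In 18 of them the resistant arrays lay wholly higher and in 1 wholly lower, against 16.1% and 14.2% of all tested genes. RIOK2, a kinase of late small subunit assembly, was at 20.8, 22.0 and 19.9 and then 41.5, 39.9 and 43.8 (log2 difference 1.00, adjusted p = 0.0579). RRS1, which brings the 5S particle into the large subunit, had 1.02 (adjusted p = 0.0609), and NOB1, which cuts the end of the small subunit rRNA, 1.04 (adjusted p = 0.0666). In each of them the arrays did not overlap. Of the 62 tested probe sets of the list 1 was called, in TCOF1, the treacle protein of rRNA transcription. Over all tested probe sets 2.33% were called. The 8 chaperones of ribosomal proteins had a median of 0.24 and no call, with PDCD2, a chaperone of RPS2, at 0.87 (adjusted p = 0.139). The 11 genes of RNA polymerase I had 0.29 and no call, with POLR1B at 0.95 (adjusted p = 0.218) and POLR1D, which had the smallest p of them, at 0.82 (adjusted p = 0.135).

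Of 20 genes that control transcription of ribosomal protein genes or translation of TOP mRNAs, none was called, with a median of 0.078. GABPA, the DNA-binding part of GABP, was at 9.64, 10.6 and 10.7 in the parental and 6.13, 5.42 and 4.41 in the resistant arrays (log2 difference -0.96, adjusted p = 0.0857). MLST8, a subunit of the mTOR complexes, had 1.50 (adjusted p = 0.0958), at 8.89, 16.8 and 16.2 and then 54.4, 31.1 and 32.5. LARP1, which binds the cap and the TOP motif, was at 106, 73.1 and 77.4 and then 168, 145 and 215 (1.05, adjusted p = 0.104). The arrays of these 3 genes did not overlap. Mitochondrial ribosomal proteins, which build a separate ribosome, had a median of 0.071 in the large and 0.074 in the small subunit. Of 48 large subunit genes 1 was called, MRPL45, which rose from 35.2, 20.4 and 20.2 to 89.5, 83.4 and 105 (1.92, adjusted p = 0.0267), and of 27 small subunit genes none, where 2.77% of all tested genes were called.

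**Figure D5:**
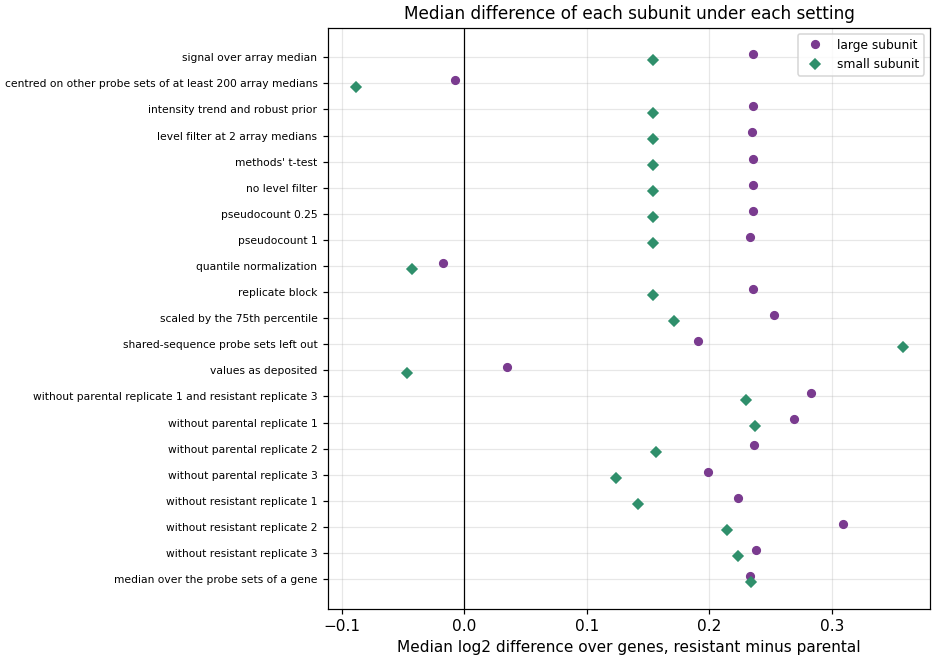
Median log2 difference over the genes of the large (purple circles) and small (green diamonds) subunit, resistant minus parental, under division by the array median (top) and each alternative setting. The medians lie at 0.24 and 0.15 at the top, near or below 0 after quantile normalization, as deposited and with centring on other probe sets of at least 200 array medians, and between 0.12 and 0.31 when arrays are left out.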

How the data were processed

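Gene expression was analyzed on 6 Affymetrix HG U133 PLUS 2.0 arrays of K562 cells, grouped by the labels. The deposited values were intensities, 1 signal for each probe set, made by the authors with MAS5, whose version is not given in the sources used here. Their methods add division by the 50th percentile and by the parental median, which the deposited intensities do not show. Each intensity was divided by its array median, values under 0.01 were set to 0.01 and log2 was taken. Controls of the manufacturer (62) were left out, and 26692 probe sets with a mean of at least 1 array median were tested with limma 3.58.1 in R 4.3.3 (lmFit, eBayes, two-sided, Benjamini-Hochberg over all of them). A call needed a fold of 2 or more together with an adjusted p under 0.05. A p above this does not show that groups were equal. Genes were represented by the tested probe set whose mean log2 level was highest. Gene names came from the platform annotation, and 41043 of 41097 probe sets with 1 gene matched RefSeq by gene ID. Start sites and sequences came from RefSeq (GRCh38.p14). The fit was checked on simulated data.

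The members and gene lists were chosen with earlier results of these data known. Values per array are given for called members, the 6 genes per subunit with the smallest p, the 3 with the highest and the 3 with the lowest level, paralogues with partners, stalk and 5S proteins, RPS6 and RPS19, the 4 genes whose probe sets differ most, and up to 3 genes per related list. RPL12, RPL10A, RPL30, RPL36, RPL27A and RPS16 were named after their values were seen. Alternatives were other scalings, filters, pseudocounts of 0.25 and 1, variance models, the t-test of the study's methods, a replicate block, leaving out arrays and leaving out probe sets that can match several transcripts. Centring on other bright probe sets and leaving out parental 1 and resistant 3 together were added after seeing the data. The number of arrays limits the precision.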

Additional observations from a re-analysis of the deposited data

How the results depend on the processing

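Numbers of called probe sets depended on most settings. Over all tested probe sets there were 622. There were 1133 with an intensity trend and robust prior, 1191 with a pseudocount of 1, 174 with no level filter, 126 with the methods' t-test after Benjamini-Hochberg adjustment, 394 without probe sets that can match several transcripts, 1014 without parental 1 and resistant 3, and 204 to 1080 when single arrays were left out. Of the large subunit 0 were called with the centring on other bright probe sets, the t-test, no filter or the values as deposited, and 1 after quantile normalization or scaling by the 75th percentile. Of the small subunit 0 were called with the t-test, no filter or the values as deposited, and 2 with a pseudocount of 0.25 or 1 or without parental 1 and resistant 3. Without single arrays each subunit had 0 to 3. Same-numbered arrays did not deviate together (correlations -0.00671, -0.0253 and -0.00641), so these deviations show no pairing by number. With 3 arrays per group they cannot exclude a pairing, and the labels do not state one. With a replicate block 269 probe sets were called, 0 of them in the large and 0 in the small subunit.

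The median log2 difference of the large subunit, 0.24, was -0.0071 with the centring, -0.017 after quantile normalization and 0.035 as deposited. That of the small subunit, 0.15, was -0.089, -0.043 and -0.046, and 0.36 without probe sets that can match several transcripts. Without single arrays they ran from 0.20 to 0.31 and from 0.12 to 0.24. The t-test and the block keep these medians by construction, and the other alternatives moved them by less than the spread between arrays.

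Of 41 named probe sets, 16 changed direction somewhere. With the centring these were the representative probe sets of RPL11 (-0.052), RPL22 (-0.027), RPL31 (-0.074), RPL37 (-0.0071), RPLP1 (-0.067), RPS15A (-0.13), RPS19 (-0.15), RPS25 (-0.23), RPS27 (-0.044), RPS27L (-0.16), RPS29 (-0.23) and RPS9 (-0.082). After quantile normalization they were those of RPL11 (-0.031), RPL22 (-0.032), RPL31 (-0.058), RPL37 (-0.017), RPL37A (-0.029), RPLP1 (-0.042), RPS15A (-0.12), RPS19 (-0.13), RPS25 (-0.20), RPS27 (-0.024), RPS27L (-0.034), RPS29 (-0.19) and RPS9 (-0.047). As deposited they were those of RPL11 (-0.0097), RPL31 (-0.032), RPLP1 (-0.025), RPS15A (-0.092), RPS19 (-0.10), RPS25 (-0.19), RPS27 (-0.0016), RPS27L (-0.12), RPS29 (-0.19) and RPS9 (-0.040). Without single arrays, or without parental 1 and resistant 3, RPL18 ran from -0.14 to 0.10, RPL36A from -0.017 to 0.69, RPL39L from -0.53 to 0.31, RPS19 from -0.010 to 0.22, RPS25 from -0.055 to 0.085, RPS27L from -0.10 to 0.52 and RPS29 from -0.0087 to 0.033. RPL18 and RPL39L, at -0.030 and -0.19 with all arrays, were at 0.10 and 0.31 without parental 1 and resistant 3. The cause was not tested. Signals near 1 array median lie close to background, which limits the dim probe sets of RPS29 and RPS14.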
